A study of Mus musculus with 12 samples.

Results

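The response of normal mouse granulosa cells to an ovulatory hormone signal was measured as the difference between wild-type (WT) cells collected 4 h after human chorionic gonadotropin (hCG) and WT cells collected just before it (0 h). These 6 expression arrays, 3 for each time, were taken by their labels from the 12 arrays of the series. The other 6 arrays carry cells of Ex6DEL mice, which lack exon 6 of Snf2l, at the same times. Snf2l, listed as Smarca1, encodes a chromatin remodelling ATPase of the ISWI family. The series title names the question behind the design, the part that this ATPase plays in superovulation and in control of Fgl2. The WT females were littermates of the Ex6DEL line. That line came from a cross of mice with a loxP-flanked Snf2l exon 6 (129Sv) to a ubiquitous Gata-1 Cre strain (CD-1), and was then kept on 129SV without Cre. At 24 to 26 days of age all females were injected with PMSG (5 IU), a serum gonadotropin of pregnant mares that makes follicles grow. Those of the 0 h groups were collected 48 h later with no hCG. Those of the 4 h groups were given 5 IU of hCG at 48 h, and were collected 4 h after that. Cells were pressed out of follicles punctured with a needle, and each array holds a pool from 5 mice. The labels do not say whether the 3 arrays of a time came from separate pools, so the p-values measure the spread between these arrays, which may be technical.

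Granulosa cells line the ovarian follicle and nourish the oocyte. Before ovulation they divide and make estradiol under follicle-stimulating hormone. The luteinizing hormone surge, which hCG imitates by binding the same receptor, raises cyclic AMP in them, and they then release EGF-like growth factors that act on neighbouring cells through the EGF receptor and the kinase ERK. Within hours the cells switch on the genes of ovulation, leave the cell cycle and start to turn into the progesterone-making cells of the corpus luteum.

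Values are log2 intensities as deposited, made with GCRMA, so a difference of 1 is a 2-fold change. Each gene was represented by 1 probe set, the one with the highest mean over the 6 arrays. Of 18194 genes, 6445 lay below the median of the array at both times and were set aside, and 11749 were tested. A gene was said to rise or fall where the adjusted p of limma was under 0.05. The labelled cell type was checked against marker genes. The granulosa markers had mean log2 values of 12.49 to 13.30 at 0 h and 12.07 to 12.57 at 4 h over the 9 genes on the array, and Amh stood at the floor of 2.21 on all 6 arrays. Over both times the markers of theca and stroma had means of 7.08 to 7.87 and those of oocytes of 6.58 to 7.54. Means were 4.72 to 5.93 for surface epithelium, 4.74 to 5.29 for leukocytes, 3.86 to 5.05 for endothelium and 4.49 to 5.46 for red blood cells. Levels of different probe sets are not comparable, so these lists are not ranked. Among single markers, Cyp17a1 of theca cells stood at 10.7 to 11.6 at 0 h and 10.4 to 12.6 at 4 h, and Zp3 of the oocyte at 8.33 to 9.32 and 8.43 to 9.31. No gene of the 7 marker lists passed the test between the times. At the 2.26% called over all genes tested, such short lists would hold few or no called genes. The part of other cells in the results was not tested.

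Some 266 genes passed, 2.26% of those tested. Of these, 170 rose (1.45%) and 96 fell (0.817%), so 63.9% rose. After quantile normalization between arrays that share was 46.5%. The increases were far the larger: the median log2 change was 3.37 among the genes that rose and -1.57 among those that fell, against -0.08 over all genes tested. At least 8-fold increases were seen for 102 genes and at least 64-fold increases for 17, while 2 genes fell by 8-fold or more. The 3 arrays of one time lay wholly above or below those of the other for all 266 genes. Over all genes tested the 4 h arrays lay wholly above for 11.4% and wholly below for 17.2%, so most genes whose arrays did not overlap did not pass. Among them were 1335 higher and 2016 lower at 4 h. At an unadjusted p under 0.05 the split was 1032 higher and 1629 lower.

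How many genes passed depended on single arrays. All 266 genes kept their direction in each of the 6 fits that left out 1 array. This was fixed in advance, since the 0 h and 4 h arrays did not overlap for any of them. With 1 array fewer and 3 residual degrees of freedom, the number that passed was 337 without WT 4 h replicate 3 and 76 without WT 0 h replicate 1. It was 33 without WT 4 h replicate 1, 4 without WT 4 h replicate 2 and 2 without WT 0 h replicate 3. No gene passed in limma without WT 0 h replicate 2, where 1819 had an unadjusted p under 0.05. Nts and Sult1e1 passed in 5 of the 6 fits, and Lepr and Snap25 in 4. Without WT 0 h replicate 1, 38 genes rose and 38 fell, so the larger share of increases was not seen in that fit.

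**Figure D1:**
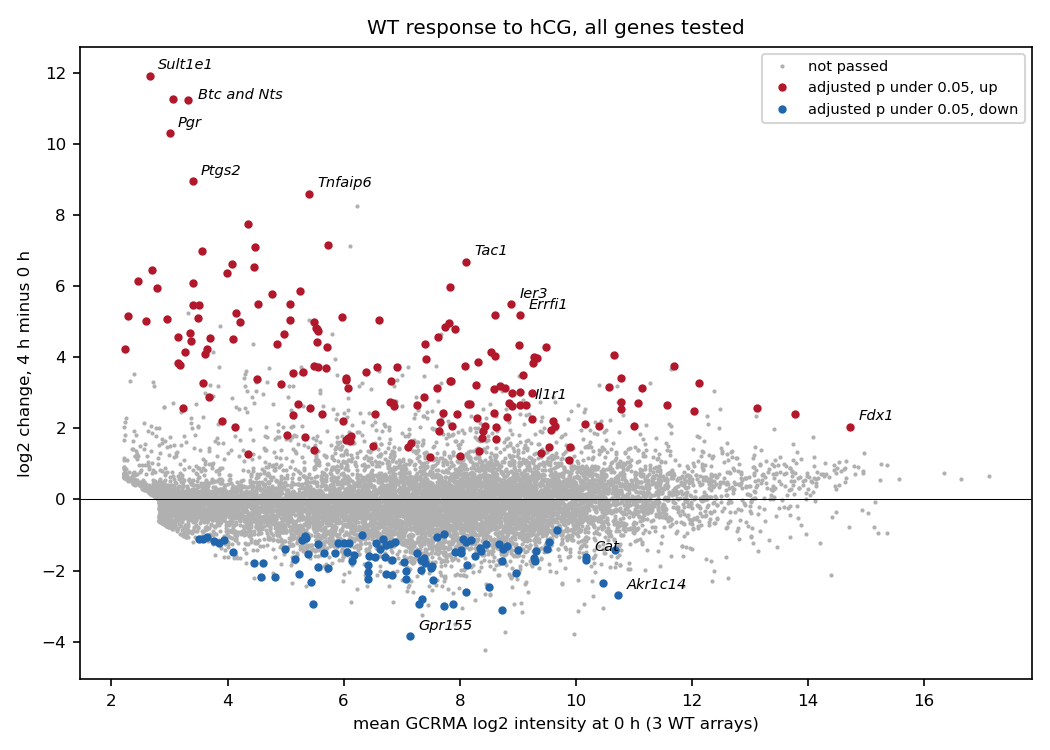
Log2 change after hCG (4 h minus 0 h) against the mean log2 intensity at 0 h for each of the 11749 genes tested in WT cells. Red points rose and blue points fell at an adjusted p under 0.05, and grey points did not pass. The rises reach 11.92 and the falls -3.85, and rises are found from the floor of the array up to Fdx1 at 14.72.

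The largest increase was that of Sult1e1, whose estrogen sulfotransferase inactivates estradiol. It had log2 values of 2.29, 2.49 and 3.20 at 0 h and 15.44, 14.30 and 14.00 at 4 h. The change was 11.92 (SE 0.45, adjusted p = 0.00219). All 3 arrays of 0 h lay near the floor and all 3 of 4 h were among the high values of the array, so the fold is limited by background on the low side. Together with Lepr, Nmu, Snap25, Adcyap1, Ch25h and Fgf5, it forms the 7 genes that rose from a 0 h mean below the array median of 2.81, which can be described as switched on. The other 163 genes that rose had means at or above the array median at both times, here called measured at both times. That median lies near the floor of 2.21. Btc, Pgr and Ptgs2 stood at 2.59, 2.30 and 2.27 in WT 0 h replicate 2, so background limits their folds too.

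The next largest increase was that of a growth factor. Btc, betacellulin, a ligand of the EGF receptor, had values of 3.84, 2.59 and 2.77 at 0 h and of 15.10, 14.33 and 13.58 at 4 h. It rose by 11.27 (SE 0.51, adjusted p = 0.00282). Epgn, epigen, another ligand of the same receptor, stood at 5.48, 3.73 and 3.0 and then at 11.82, 10.16 and 10.05, a rise of 6.61 (SE 0.79, adjusted p = 0.0305). Its 0 h arrays spread over more than 2 log2 units but stayed well below the 4 h arrays. Errfi1, an inhibitor that binds the EGF receptor and ends its signal, rose by 5.18 (SE 0.44) from 9.05 ± 0.25 to 14.22 ± 0.82 (SD, n = 3 arrays). Thus 3 of the 11 tested genes of EGF-like ligands and receptors rose and none fell, against 1.45% and 0.817% of all genes tested. The list's median of -0.08 equals that of all genes. The receptor gene Egfr itself had a change of -0.34 (SE 0.34). Rhbdf1 and Rhbdf2, which encode the iRhom proteins that help ADAM17 to shed such ligands and were chosen here after their values were seen, rose by 2.03 and 2.08.

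Epiregulin, Ereg, was the clearest case of a large change that did not pass. Its values were 10.75, 3.88 and 4.06 at 0 h and 15.10, 15.24 and 13.15 at 4 h. The change of 8.27 had an SE of 1.98 (adjusted p = 0.0903), since WT 0 h replicate 1 stood above the other 0 h arrays. Without that array the change was 10.53 (adjusted p = 0.0487), and over all alternatives the adjusted p ran from 0.00611 to 0.262. The same array was high for tissue factor, F3, the starter of coagulation, at 9.18 against 4.70 and 4.44, and for Crem, a cyclic AMP-responsive factor, at 10.07 against 6.39 and 6.58. F3 had a change of 7.12 (adjusted p = 0.0755) and Crem of 4.67 (adjusted p = 0.104). In all, 47 genes were at least 8-fold higher at 4 h with no overlap of arrays and did not pass. WT 0 h replicate 1 was the highest 0 h array for 22 of them (46.8%). That array was also the highest at 0 h for 68 of the 170 genes that rose, and for 2673 of all 11749 tested. Another 9 genes were at least 8-fold lower with no overlap and did not pass. The deepest was Tmprss13, a membrane protease gene chosen after its values were seen, with 7.28, 8.89 and 9.14 at 0 h and 2.26, 3.23 and 7.07 at 4 h (-4.25, SE 1.33, adjusted p = 0.146). Over the immediate early genes as a list WT 0 h replicate 1 had a mean log2 value of 8.09, against 6.27 and 6.61 in the other 0 h arrays and 8.31 to 9.64 at 4 h. Over all genes tested it had a median of 7.09, against 7.41 and 7.43. Over the 170 genes that rose, its median difference from the other 0 h arrays was 0.06. Why WT 0 h replicate 1 differs was not tested.

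**Figure D2:**
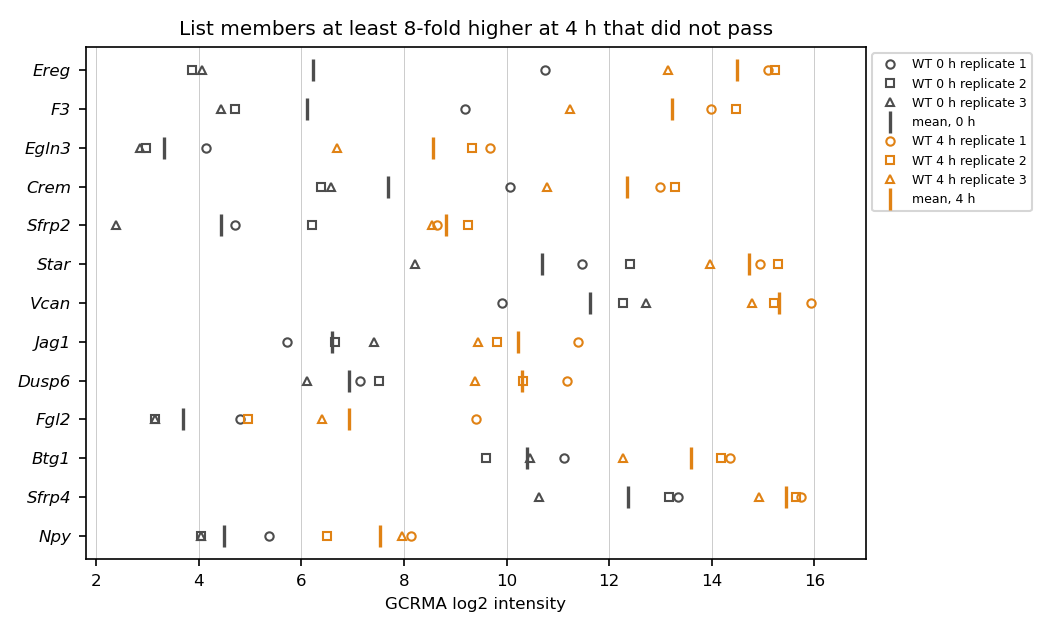
GCRMA log2 intensity on each of the 6 WT arrays for the 13 members of the gene lists that were at least 8-fold higher at 4 h, had no overlap between the times and did not pass. Grey symbols are 0 h and orange symbols 4 h, the shape gives the replicate and bars are means. For Ereg, F3 and Crem the circle of WT 0 h replicate 1 lies far to the right of the other 0 h arrays, and for Star and Sfrp4 the triangle of replicate 3 lies far to the left.

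Genes of signalling downstream of the receptor passed in small numbers. Immediate early genes encode factors that are transcribed within minutes of a signal. Of the 27 tested, 5 rose and none fell, 25 had a positive change, and their median was 1.87. Over all genes tested, 1.45% rose and 5088 of 11749 had a positive change. Egr3, a zinc finger factor, had 4.25, 3.28 and 3.17 at 0 h and 11.64, 10.98 and 9.10 at 4 h, a rise of 7.0 (SE 0.71, adjusted p = 0.0272). The others were Ier3, a regulator of survival and ERK signalling (5.50), Ier5 (4.65), the small MAF factor Maff (4.09) and Csrnp1 (1.73). The factors best known from this class gave other values. Egr1, the zinc finger factor of the same family, had a change of 3.18 (SE 1.25), Nr4a1, an orphan nuclear receptor, of 2.45 (SE 1.25) and Fos, a subunit of AP-1, of 1.0 (SE 1.05). None of these 3, chosen after their values were seen, passed, their times overlapped, and each was highest among the 0 h arrays in replicate 1, at 12.82, 12.74 and 10.94.

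Among feedback inhibitors of ERK, 2 of 16 tested genes rose, against 1.45% of all genes tested. Errfi1 is counted in this list too, and Spry2, Sprouty 2, which dampens receptor tyrosine kinase signals, rose by 3.32 (SE 0.38, adjusted p = 0.0289) from 6.81, 6.44 and 7.18 to 10.64, 10.34 and 9.42. The list had 12 positive and 4 negative changes, with a median of 1.14. The ERK phosphatase genes Dusp6 (3.37, SE 0.57, adjusted p = 0.0516) and Dusp4 (2.88, SE 0.56, adjusted p = 0.0621) did not pass. In the cyclic AMP pathway 2 of 27 tested genes rose, and the list's median was -0.08, as over all genes. The risen genes were Pde4b, a phosphodiesterase that breaks down cyclic AMP (3.15, SE 0.37), and the anchoring protein gene Akap13 (1.22, SE 0.16). Adcy9, an adenylyl cyclase, had values of 10.47, 10.08 and 10.42 and then 7.63, 8.24 and 8.95, with an adjusted p of 0.0548. The call for Akap13 rests on the probe set used: its 4 other tested probe sets had changes of -0.56 to 0.74, and none of them passed. The further tested probe set of Spry2 (0.26) did not pass either.

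Cyclic GMP signalling is the brake that keeps the oocyte in meiotic arrest: C-type natriuretic peptide from granulosa cells drives cyclic GMP through the receptor encoded by Npr2. Of 16 tested genes of this pathway 3 rose and 1 fell, against 1.45% and 0.817% of all genes tested. The list had 8 positive and 8 negative changes, with a median of -0.13. Prkg2, the cyclic GMP-dependent kinase II, stood at 4.07, 4.12 and 4.22 at 0 h and at 10.57, 8.70 and 8.85 at 4 h, a rise of 5.23 (SE 0.52, adjusted p = 0.0248). The clearance receptor gene Npr3 rose by 5.09 (SE 0.75), and Npr1, the receptor for the atrial peptide, by 2.05 (SE 0.21). Pde6d, which carries prenylated proteins, fell by 1.65. The peptide precursor Nppc (-1.75, SE 0.76, adjusted p = 0.245) and Npr2 (-0.89, SE 0.40, adjusted p = 0.257) did not pass.

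Among transcription factors, the progesterone receptor gene Pgr, which ovulation requires, had values of 3.82, 2.30 and 2.89 at 0 h and 14.08, 13.41 and 12.43 at 4 h. It rose by 10.31 (SE 0.56, adjusted p = 0.0048). Its 0 h arrays lay within 2 log2 units of the floor. Msc, musculin, a helix-loop-helix repressor, rose by 7.75 (SE 0.61), from 4.69, 4.14 and 4.23 to 13.42, 11.84 and 11.06. Runx1 had 3.79, 3.79 and 5.83 at 0 h against 12.48, 11.15 and 11.04 at 4 h, a rise of 7.09 (SE 0.70, adjusted p = 0.0248). Cebpa rose by 2.44 (SE 0.38, adjusted p = 0.0442). These were the 4 that passed of 29 tested ovulatory factors and coregulators, 13.8% against 2.26% of all genes tested. The list's median was 0.48. Cebpb, which with Cebpa is known to be needed for the luteal program, had a change of 1.33 (SE 0.37, adjusted p = 0.119).

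The hyaluronan matrix is the sticky coat that lets the cumulus cells and the oocyte leave the follicle together. With 7 genes up and 1 down of 14 tested, it had the largest share called among the 33 process lists, 57.1% against 2.26% of all genes. Its median of 2.66 was also the highest. The count of genes behind that share is small, and 4 more of its 18 genes were set aside as low. Ptgs2, cyclooxygenase 2, which makes the prostaglandins that the expansion needs, had 5.33, 2.27 and 2.59 at 0 h and 13.88, 12.36 and 10.83 at 4 h, and it rose by 8.96 (SE 1.11, adjusted p = 0.0305). Tnfaip6, whose protein links heavy chains to hyaluronan, rose by 8.60 (SE 0.67), from 6.68, 4.67 and 4.87 to 14.24, 14.64 and 13.14. Ptx3, the pentraxin that ties these chains together, rose by 7.16 (SE 0.40, adjusted p = 0.00492), from 6.13, 5.66 and 5.42 to 13.68, 12.67 and 12.35. For each of them the lowest 4 h array was more than 5 log2 units above the highest 0 h array.

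Has2, the hyaluronan synthase, rose by 4.57 (SE 0.70, adjusted p = 0.0431), from 2.73, 3.34 and 3.34 to 9.17, 7.48 and 6.47. Has1, a second synthase that was chosen after its values were seen, rose by 4.53 (SE 0.35). Protease genes of one family ran in opposite directions. Adamts4 (3.68, SE 0.29) and Adamts9 (2.30, SE 0.29), which cut versican, rose, and Adamts5, of the same family, fell by 2.06 (SE 0.30) from 8.98 ± 0.18 to 6.92 ± 0.53 (SD, n = 3 arrays). Timp1, a metalloprotease inhibitor, rose by 3.01 (SE 0.47). The versican gene Vcan itself had 9.90, 12.28 and 12.72 and then 15.93, 15.20 and 14.79, a change of 3.67 with an adjusted p of 0.0753. Genes of enzymes that put sulfate on sugar chains moved both ways: Chst15 rose by 5.96 (SE 0.49) and Hs3st1 by 4.02 (SE 0.45), while Chst12 fell by 1.58 (SE 0.23). These 3 were chosen after their values were seen and come from no list.

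Peptide hormone precursors are made by neurons and endocrine cells, and ovulating granulosa cells are known to make several. Of 30 such genes on the array 14 were set aside as low, 6 of the 16 tested rose and none fell. Over all genes tested 1.45% rose. Among the risen, Nmu and Adcyap1 lay below the array median at 0 h, so only their 4 h level brought them into the test. The filter thus raised this share. The list's median was 1.16 over those tested and 0.17 where no gene was set aside. Nts, the precursor of neurotensin, stood at 3.39, 3.19 and 3.39 at 0 h and at 15.34, 14.28 and 14.02 at 4 h, a rise of 11.23 (SE 0.37, adjusted p = 0.00188). Tac1, the precursor of substance P, began higher, at 8.77, 7.25 and 8.29, reached 15.72, 14.43 and 14.23, and rose by 6.69 (SE 0.56). The 0 h arrays of Nts lay close together, and those of Tac1 spread more widely.

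The other risen precursors were Nmu, neuromedin U (5.95), Chgb, chromogranin B of secretory granules (5.50), Adcyap1, the precursor of PACAP (5.01), and Penk, proenkephalin (4.44). Pcsk5, a convertase that cuts precursors, rose by 4.29 (SE 0.23, adjusted p = 0.0048) and was chosen after its values were seen. Snap25, part of the complex that fuses vesicles with the cell membrane, had 2.51, 2.46 and 2.38 at 0 h and 9.16, 8.12 and 8.52 at 4 h, a rise of 6.15 (SE 0.29, adjusted p = 0.00282). It was the only gene of 29 tested in the exocytosis machinery that rose, and Exoc6, a subunit of the exocyst, fell by 2.13. The 6.9% called in that list stands beside 2.26% of all genes tested.

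A few receptors of the cytokine list rose, from different levels. Lepr, the leptin receptor, had values of 2.71, 2.71 and 2.66 at 0 h and 9.73, 8.74 and 8.97 at 4 h, and rose from near the floor by 6.46 (SE 0.28, adjusted p = 0.00282). Cxcr4, the receptor of the chemokine CXCL12, stood at 5.53, 3.68 and 2.74 and then at 10.41, 10.22 and 10.44, a rise of 6.37 (SE 0.70). Il1r1, the interleukin 1 receptor, was well above background at 0 h, with 9.14, 8.64 and 9.64, and rose by 2.64 (SE 0.38). These were the 3 risen of 26 tested genes of cytokine signalling, 11.5% called against 2.26% of all genes tested. Of 28 tested interferon-inducible genes 1 passed (3.57%, near the share of all genes): Ifi202b rose by 6.55 (SE 0.89), and the list's median was -0.14. Leukocyte markers had 6 positive and 6 negative changes of 12 tested, with means of 4.74 to 5.29 at 0 h and 5.00 to 5.14 at 4 h. Positive and negative changes numbered 12 and 1 for oocyte markers, 6 and 2 for surface epithelium and 2 and 0 for red blood cells. They were 6 and 7 for theca and stroma, 4 and 5 for endothelium and 4 and 4 for granulosa markers. Whether other cells contribute to these rises was not tested.

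**Figure D3:**
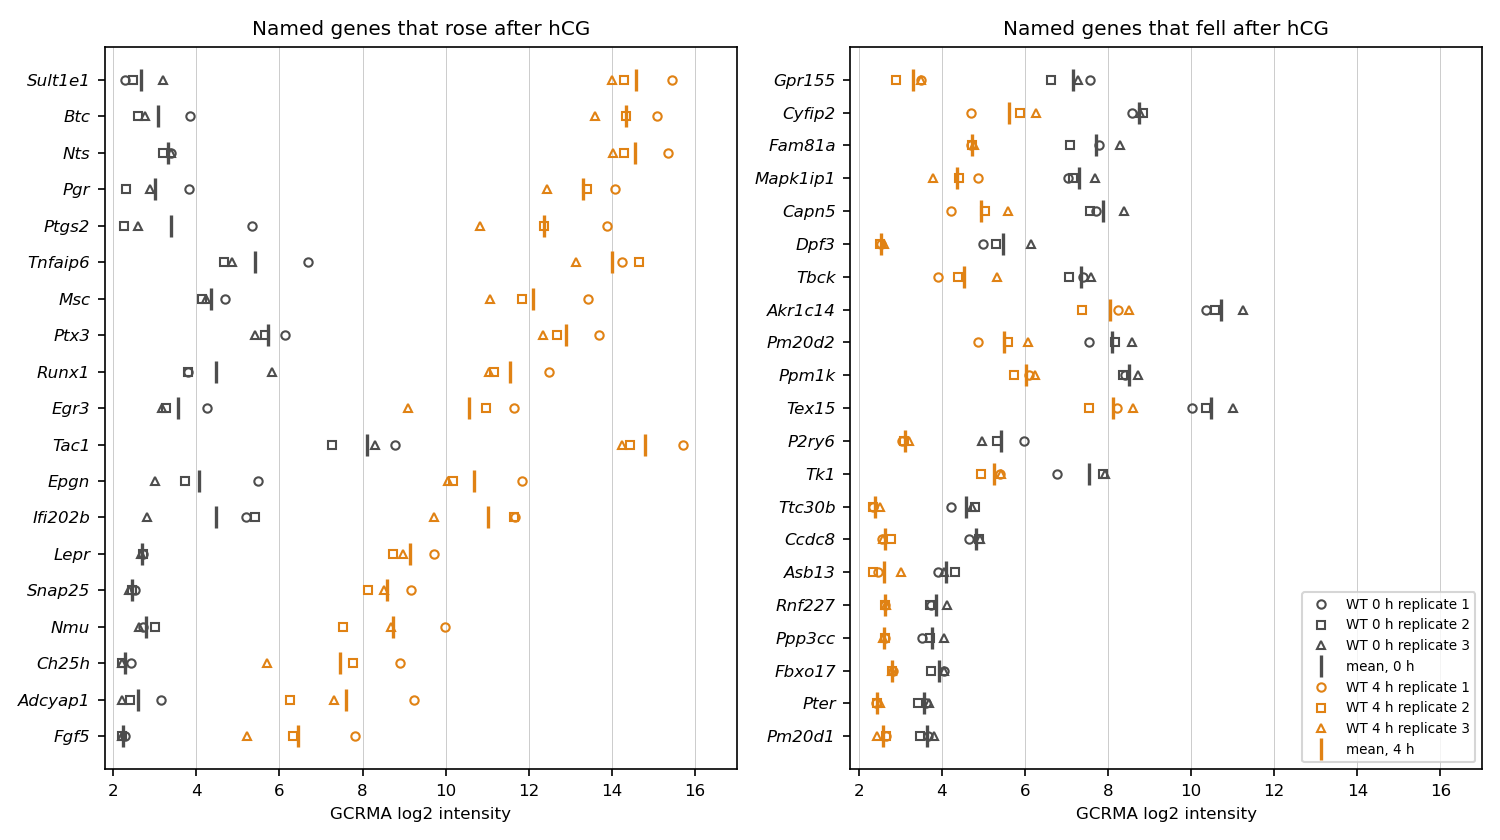
GCRMA log2 intensity on each of the 6 WT arrays for named genes that rose (left) and fell (right). Grey symbols are the 0 h arrays and orange symbols the 4 h arrays, the shape gives the replicate and vertical bars are means of 3 arrays. These genes were chosen to have no overlap, so no symbol of one time crosses those of the other. Sult1e1 moves from 2.66 to 14.58, and the 4 h values of the lower genes on the right collect near the floor.

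Proteases of blood clotting, vessel factors and metabolism held smaller numbers of called genes. The shares called were 12.5% for clotting, 3.7% for vessel factors and 5.56% for hypoxia and glycolysis, against 2.26% of all genes tested. Plau, urokinase, which activates plasmin, had 3.5, 3.29 and 3.29 at 0 h and 9.23, 7.53 and 7.39 at 4 h, a rise of 4.69 (SE 0.52). Procr, the receptor of protein C, rose by 4.86 (SE 0.57), and 2 of 16 genes tested in this list passed. Fgl2, named in the series title, had a change of 3.22 (SE 1.20, adjusted p = 0.196), with 4.81, 3.16 and 3.15 at 0 h and 9.41, 4.96 and 6.40 at 4 h. Vegfc, a lymphatic growth factor, rose by 3.59 (SE 0.53) as 1 of 27 tested angiogenic genes. Slc2a1, the glucose transporter GLUT1 (2.67), and Ndrg1 (1.6) were the 2 of 36 tested hypoxia and glycolysis genes that rose.

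Of 44 tested genes of amino acid and glutathione metabolism 4 rose and 1 fell, against 1.45% and 0.817% of all genes tested. The list had 23 positive and 21 negative changes, with a median of 0.20. Slc7a11, the cystine carrier, had values of 3.60, 3.28 and 3.61 and then 9.52, 7.99 and 8.30, a rise of 5.11 (SE 0.42, adjusted p = 0.0156). Gclc, the first enzyme of glutathione synthesis, rose by 3.12 (SE 0.25), and the carriers Slc7a8 and Slc7a1 by 2.99 and 2.75. Cat, catalase, which destroys hydrogen peroxide, fell by 1.63 (SE 0.25), from 9.82, 10.24 and 10.47 to 8.82, 8.22 and 8.59. The groups of Cat did not overlap. Odc1, the rate-limiting enzyme of polyamine synthesis, rose by 3.75 (SE 0.43) and was chosen after its values were seen.

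Steroid genes passed in few cases. Fdx1, the ferredoxin that passes electrons to the side-chain cleavage enzyme, rose by 2.05 (SE 0.31, adjusted p = 0.0409), from 14.76, 15.07 and 14.35 to 16.93, 17.12 and 16.27. Akr1c14, a hydroxysteroid dehydrogenase, fell by 2.69 (SE 0.39, adjusted p = 0.039), from 10.35, 10.57 and 11.26 to 8.24, 7.37 and 8.50. Star, which brings cholesterol into mitochondria, had 11.46, 12.40 and 8.22 at 0 h and 14.93, 15.28 and 13.96 at 4 h. Its change of 4.03 had an SE of 1.12 (adjusted p = 0.119), and Cyp11a1, the side-chain cleavage enzyme, had one of 1.20 (SE 0.44). None of 27 tested cholesterol genes passed. Of these, 19 had a positive change, against 5088 of 11749 over all genes, and 9 lay wholly higher at 4 h, against 11.4% over all genes. The nearest were Scarb1, the HDL receptor (1.75, adjusted p = 0.0577), and Cyp51, of the synthesis pathway (2.27, adjusted p = 0.0639). For this list limma thus gave a count of 0, while the median was 0.70 against -0.08 over all genes.

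**Figure D4:**
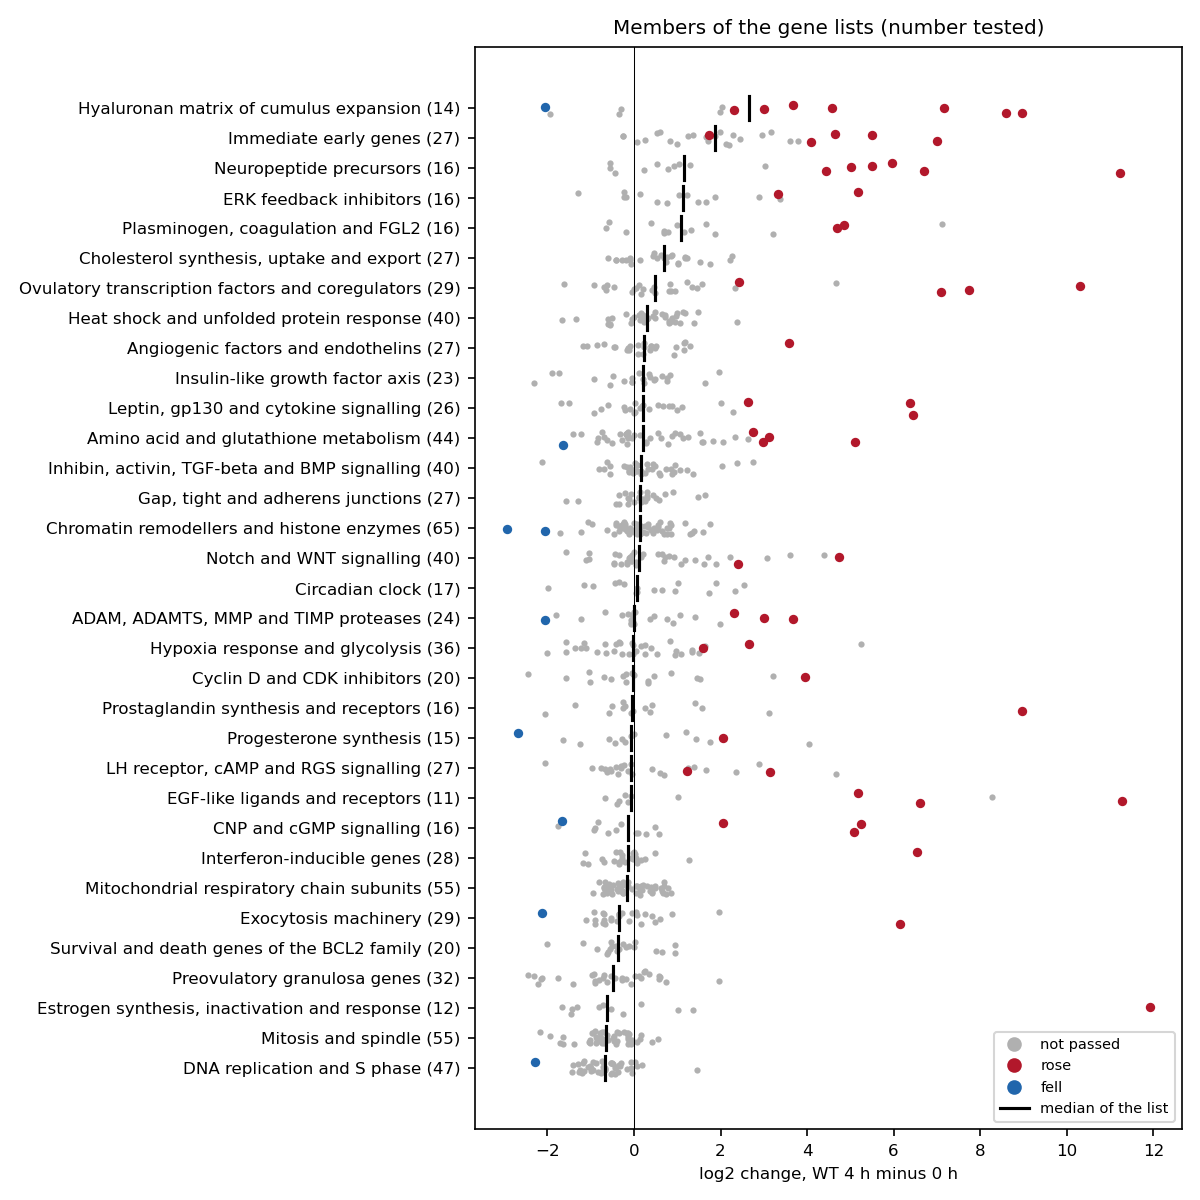
Log2 change in WT cells (4 h minus 0 h) of every tested member of the 33 process lists, with the number tested in brackets. Red members rose, blue members fell, grey members did not pass, and black bars are list medians. The hyaluronan matrix has the highest median (2.66), and DNA replication the lowest (-0.67).

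Called falls were smaller than called rises and spread over many functions. The deepest was that of Gpr155, a lysosomal cholesterol sensor, with 7.56, 6.62 and 7.27 at 0 h and 3.49, 2.90 and 3.5 at 4 h, a fall of 3.85 (SE 0.32, adjusted p = 0.0156). Cyfip2, of the actin-regulating WAVE complex, fell by 3.12 (SE 0.43), from 8.58, 8.85 and 8.78 to 4.69, 5.88 and 6.28. Next in size among called genes measured at both times, beside Akr1c14, came Fam81a (-2.99), Mapk1ip1 (-2.94), the calpain gene Capn5 (-2.94), Tbck (-2.80), Pm20d2 (-2.60), the mitochondrial phosphatase gene Ppm1k (-2.47), the germ cell gene Tex15 (-2.35) and P2ry6, a receptor for UDP (-2.32). Osbpl5, of a family of lipid carriers, fell by 2.10 (SE 0.20).

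Another 11 genes fell to a 4 h mean below the array median of 2.81, so background limits how far they can be seen to fall. Dpf3, a subunit of BAF chromatin remodellers, had 4.98, 5.30 and 6.14 at 0 h and 2.53, 2.51 and 2.61 at 4 h, a fall of 2.93 (SE 0.32). Ccdc8 fell by 2.18 (SE 0.16, adjusted p = 0.0152), from 4.66, 4.90 and 4.92 to 2.57, 2.77 and 2.59. Ttc30b, of the transport machinery of cilia, fell by 2.19 (SE 0.21). Falls of 1.06 to 1.49 were seen for Asb13, Rnf227, Ppp3cc, Fbxo17, Pter and Pm20d1, all from low 0 h levels, and the other two are predicted genes. Dpf3 and Kat6b, a histone acetyltransferase (-2.05, SE 0.29), were the 2 that fell of 65 tested genes in the chromatin list. No member of the list rose. Over all genes tested 0.817% fell and 1.45% rose. Jarid2, a chromatin gene outside this list that was chosen after its values were seen, rose by 2.06. Smarca1 itself had a change of 0.64 (SE 0.47, adjusted p = 0.459).

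The cell cycle lists leaned down with hardly any gene passing. Tk1, the thymidine kinase of S phase, had 6.78, 7.88 and 7.94 at 0 h and 5.41, 4.95 and 5.41 at 4 h, a fall of 2.28 (SE 0.36, adjusted p = 0.0465). It was the 1 of 47 tested DNA replication genes that passed (2.13%, against 2.26% of all genes tested). Yet 43 of the 47 had a negative change and the median was -0.67. Of 55 tested mitosis genes limma called none, 50 had a negative change and the median was -0.65. Kif4, a chromosome kinesin (-1.64, adjusted p = 0.0622), came nearest, followed by Hmmr, a spindle protein (-1.94), and Ccnb2, a mitotic cyclin (-2.16, adjusted p = 0.0664). Without WT 0 h replicate 3 these medians were -0.43 and -0.36. Cdkn1a, p21, which stops cyclin-dependent kinases, had 7.84, 7.17 and 7.24 and then 11.53, 11.89 and 10.70, and it rose by 3.96 (SE 0.37, adjusted p = 0.0226). In a bulk sample, fewer dividing cells and less of these RNAs in each cell cannot be told apart.

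None of 32 tested genes typical of the preovulatory follicle passed in limma, with 21 negative and 11 positive changes. Over all genes tested 6661 of 11749 changes were negative. Fshr, the receptor of follicle-stimulating hormone, had 11.08, 11.90 and 12.58 at 0 h and 8.63, 9.01 and 10.60 at 4 h, a change of -2.44 (SE 0.64, adjusted p = 0.107). Gata4, a factor of granulosa identity, had a change of -2.15 (SE 0.40, adjusted p = 0.0577), and Foxo1, a forkhead factor of growing follicles, one of -2.30 (SE 0.69). In the other direction Igf1r, the receptor of insulin-like growth factor 1, had 10.01, 9.76 and 10.47 and then 12.72, 12.07 and 11.32, a change of 1.96 (SE 0.40, adjusted p = 0.0683). Both Fshr and Gata4 had no overlap between the times, as did 17.2% of all genes in that direction. None of 55 tested respiratory chain genes passed. At the 2.26% called over all genes, lists of this size would hold few or no called genes. No member was called in the lists for TGF-beta and BMP signalling (40 tested), insulin-like growth factors (23), junctions (27), the circadian clock (17), heat shock (40) and the BCL2 family (20). These lists do not hold every gene of a process. Bmper, of BMP signalling, rose by 4.95 and Dnaja4, of the heat shock proteins, by 4.14. Both are outside these lists and were chosen after their values were seen. Of 40 tested Notch and WNT genes 2 rose, Hey1, a target of Notch (4.74, SE 0.78), and the WNT receptor gene Fzd1 (2.40, SE 0.28).

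Promoters were examined because cyclic AMP acts on genes through the cyclic AMP response element (CRE), the palindrome TGACGTCA bound by CREB and its relatives. RefSeq promoter windows of 300 bases (250 before to 50 after a start, build GRCm38.p6) matched 133 of the 170 risen genes, 69 of the 96 fallen genes and 9492 of all tested genes. The full CRE stood in a window of 9 risen genes (6.77%), 1 fallen gene (1.45%) and 332 of all tested (3.5%). Printed here are 8 of the 9, from 125 bases before to 25 bases after the start, since their CRE lies within 95 bases of it. Each line reads 5' to 3' on the gene's strand, and capitals mark the CRE.
Dio2, chr12:90739014-90739163, minus strand: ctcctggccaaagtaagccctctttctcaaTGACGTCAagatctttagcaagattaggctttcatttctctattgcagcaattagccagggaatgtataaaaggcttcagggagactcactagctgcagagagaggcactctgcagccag
Chgb, chr2:132781517-132781666, plus strand: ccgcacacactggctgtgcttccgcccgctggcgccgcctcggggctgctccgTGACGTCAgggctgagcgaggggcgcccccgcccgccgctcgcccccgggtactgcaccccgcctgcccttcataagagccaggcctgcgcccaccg
Errfi1, chr4:150854945-150855094, plus strand: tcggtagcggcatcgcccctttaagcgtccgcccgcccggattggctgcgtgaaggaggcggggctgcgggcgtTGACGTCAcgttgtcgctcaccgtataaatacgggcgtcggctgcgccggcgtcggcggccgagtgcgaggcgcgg
Ch25h, chr19:34475124-34475273, minus strand: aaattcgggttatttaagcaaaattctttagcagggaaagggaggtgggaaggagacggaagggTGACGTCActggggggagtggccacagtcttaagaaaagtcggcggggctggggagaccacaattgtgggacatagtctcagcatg
Has1, chr17:17855164-17855313, minus strand: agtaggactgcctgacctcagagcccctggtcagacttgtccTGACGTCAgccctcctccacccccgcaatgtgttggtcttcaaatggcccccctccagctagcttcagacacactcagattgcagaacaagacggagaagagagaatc
Hhip, chr8:80057984-80058133, minus strand: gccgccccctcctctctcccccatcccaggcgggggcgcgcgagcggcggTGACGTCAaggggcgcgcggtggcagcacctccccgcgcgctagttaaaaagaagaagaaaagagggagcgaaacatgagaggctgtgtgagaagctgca
Maff, chr15:79347395-79347544, plus strand: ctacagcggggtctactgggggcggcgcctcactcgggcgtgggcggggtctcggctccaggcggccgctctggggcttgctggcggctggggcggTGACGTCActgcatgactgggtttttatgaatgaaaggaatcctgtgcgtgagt
Sh3gl2, chr4:85205331-85205480, plus strand: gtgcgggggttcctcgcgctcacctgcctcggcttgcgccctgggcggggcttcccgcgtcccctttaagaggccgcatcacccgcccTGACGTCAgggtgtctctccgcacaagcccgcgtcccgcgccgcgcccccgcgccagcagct

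The genes with these windows had no single function. Dio2, the enzyme that activates thyroid hormone, rose by 5.79 (SE 0.74), and its CRE begins 95 bases before the start. In Chgb it begins at 72 bases, in Errfi1 at 51 and in Ch25h, the cholesterol 25-hydroxylase, which rose by 5.17 (SE 0.80), at 61. Has1 has it at 83 bases, Hhip, an inhibitor of hedgehog ligands that rose by 4.14, at 75, Maff at 29 and Sh3gl2, an endophilin that rose by 3.73, at 37. The ninth gene, Gtf2f1, rose by 1.29 and has it at 180 bases, and the fallen gene is Tbck. Errfi1 has 2 windows and Maff 3, from different starts, and the CRE was counted in any of them. Dio2, Hhip, Sh3gl2 and Gtf2f1 are named for this match and were chosen after their values were seen.

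Other elements were searched in the same windows. The 5 bases TGACG, which every CRE contains on both strands, stood in 43.6% of risen, 27.5% of fallen and 35.1% of all tested genes. The AP-1 element TGANTCA, which a CRE cannot match, gave 11.3%, 2.9% and 6.31%, and the TATA box letters TATAAA gave 18.8%, 4.35% and 9.36%. The RUNX letters TGTGGT gave 14.3%, 20.3% and 14.6%, and the SP1 letters GGGCGG 69.9%, 69.6% and 68.8%. For the antioxidant response letters TGACNNNGC, which can overlap the TGACG letters, the shares were 16.5%, 17.4% and 16.9%. The letters AAGGTCA, bound by SF-1 and LRH-1, gave 2.26%, 1.45% and 3.92%, and the EGR letters GCGTGGGCG 2.26%, 0% (0 of 69) and 1.43%. Both strands were searched for each. Genes had 1.23 windows on average among the risen, 1.16 among the fallen and 1.28 over all, and the shares are descriptions without a test.

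Probe sets tested one by one gave more rises than falls. Of 23412 probe sets tested 439 passed (1.88%), 314 up and 125 down. Of these, 71 have no single gene symbol in the annotation used, 62 of them up. The 266 called genes had 302 further probe sets, of which 107 were set aside and 195 were tested. Of those tested, 188 had the direction of the gene, and 51 passed in it. Spry2 (0.26), Npr3 (0.51 and 1.77) and Sh3gl2 (0.21) have further probe sets that did not pass. The median change of the 195 was 1.95 for risen genes and -1.10 for fallen genes. For the probe sets chosen for their level, the medians were 3.37 and -1.57. The 7 exceptions belong to Akap13, Dele1, Il1rl2, Pcdh9, Slc44a1 and Taok1 (2 probe sets), chosen after their values were seen. None of these 7 passed by itself.

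The size of the rise differed among the 4 h arrays. Over the 170 risen genes the median distance from the 0 h mean was 4.10 in replicate 1, 3.40 in replicate 2 and 2.82 in replicate 3. Replicate 1 was the highest 4 h array for 124 of the 170 genes, and for 4562 of all 11749 tested. Over all genes tested the median distances were -0.11, -0.05 and -0.10. For the fallen genes the medians were -1.62, -1.6 and -1.39. On the first principal component of the 6 arrays, with 59.3% of the variance, the 4 h arrays stood at 78.1, 51.7 and 22.1, and the 0 h arrays at -44.8, -51.1 and -56.0.

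The Ex6DEL arrays, which share none with the WT comparison, give the same contrast in mutant cells. All 266 genes called in WT had the same sign there, against 72.1% of all genes tested. The 170 risen genes had a median change of 2.99 in Ex6DEL and of 3.37 in WT, and the 96 fallen genes of -1.54 and -1.57. Some 148 of the 170 rose further in WT than in Ex6DEL in these means, and 49 of the 96 fell further. The genes were chosen by their WT values, which favours larger changes there. Ex6DEL 0 h replicate 3 was high for genes of the response, with Pgr at 10.44 against 4.71 in replicate 1 and 2.79 in replicate 2. Ex6DEL 0 h replicate 1 was high for markers of other cells, with Cyp17a1 at 15.14 and Zp3 at 12.62, and their part in this comparison was not tested. Without replicate 3 the Ex6DEL medians were 3.32 and -1.75, and 92 of the 170 rises and 41 of the 96 falls were larger in WT. The test of the difference itself, the interaction over all 12 arrays in limma, called 0 of 11749 genes (0%), and 471 had an unadjusted p under 0.05. Ccdc8 came nearest, with -2.18 in WT and -0.13 in Ex6DEL (interaction adjusted p = 0.0665). For Sult1e1 the change was 11.92 in WT and 9.35 in Ex6DEL, or 11.87 without Ex6DEL 0 h replicate 3, where the gene stood at 10.31 against 2.24 and 3.20. For Pgr it was 10.31 and 7.57, or 9.80 without that array, and for Lepr 6.46 and 6.83, or 7.11. That no gene passed does not show that the responses are equal.

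**Figure D5:**
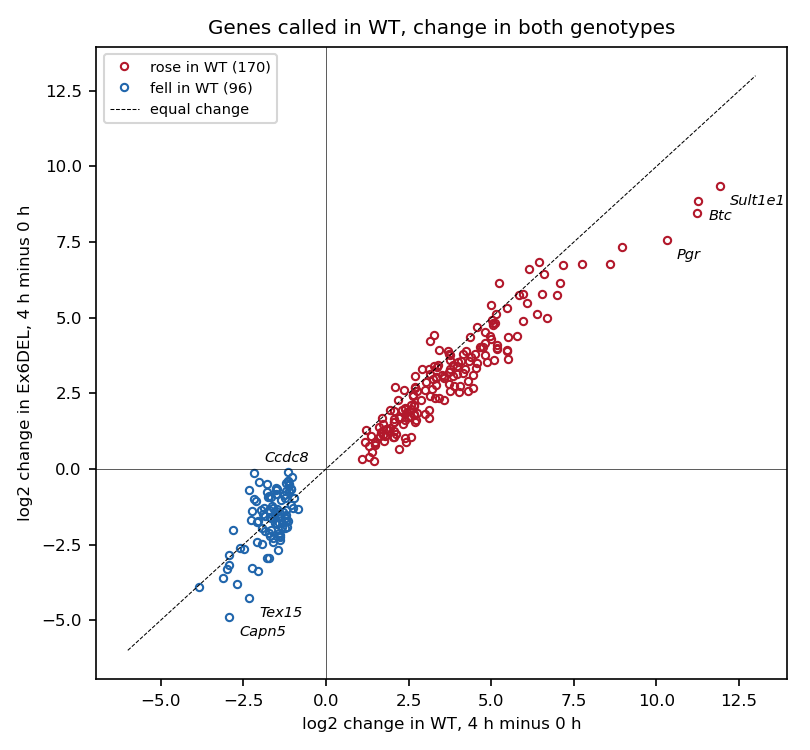
Log2 change after hCG in Ex6DEL cells against that in WT cells for the 266 genes called in WT, red for the 170 that rose and blue for the 96 that fell. The dashed line marks equal change. All points lie in the quadrants of equal sign, the largest rises, such as Sult1e1 (11.92 in WT, 9.35 in Ex6DEL), lie below the line, with Ex6DEL 0 h replicate 3 included, and Ccdc8 lies near 0 in Ex6DEL.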

How the data were processed

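Each probe set has a deposited log2 intensity, made by the authors with GCRMA (version not given), per the submitters' processing notes. GCRMA subtracts background by sequence, normalizes between arrays and summarises probes. This compresses low values to a floor of 2.21, and the highest value was 18.02. A reference table gave exactly 1 gene symbol to 34958 of 45101 probe sets, several to 932 and none to 9211. Probe positions and the build behind them are not given in the sources used here, so only RefSeq promoter windows carry coordinates.

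limma 3.58.1 (R 4.3.3) was applied to the 6 WT arrays, with neither trend nor robust settings, as a two-sided test with Benjamini-Hochberg adjustment over the 11749 genes tested. The estimated prior degrees of freedom were 1.69 beside 4 residual ones. The 12-array fit gave the interaction. Errors are model standard errors (SE). The number of arrays limits the precision. Genes were set aside by the mean of the 3 array medians at each time.

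Named genes were taken from called genes that are not predicted and whose arrays did not overlap between the times. They are the 12 largest changes each way among those measured at both times. To these come up to 10 each way with the lower mean below the median, and the 5 smallest p each way. From each list up to 4 genes by p were named as well, called or not. Also named, after their values were seen, were the markers Amh, Cyp17a1 and Zp3, and Cebpb, Crem, Cyp11a1, Egfr, Fgl2, Has2, Ier5, Nppc, Npr2, Penk, Sfrp4, Slc7a1, Smarca1, Star, Vcan and those so described in the text. Predicted genes (4 up, 3 down) were counted and not named. Genes and the 33 process lists (1086 symbols, 1013 on the array, 891 tested, 50 up and 8 down) and 7 marker lists were chosen with earlier results of these data known. Symbols of the lists outside the 18194 genes are not analysed here. The fit was tested on simulated data. The main fit did not treat replicate numbers as pairs. Deviations from the group means correlated at 0.0811, 0.208 and 0.0043 between arrays of the same number. So few values cannot exclude a pairing. Alternatives were other normalizations, filters, probe summaries and model settings, and each array left out.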

Additional observations from a re-analysis of the deposited data

How the results depend on the processing

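All 266 called genes kept their direction under each alternative in which they were tested. With a group mean above a log2 level of 5 required, 254 were tested, and otherwise all 266. Since the arrays of these genes did not overlap, fits that changed only model settings or left out arrays could not reverse a direction. The number of calls did not hold. Against 266 calls (170 up, 96 down), there were 731 (340 and 391) after quantile normalization, 784 (446 and 338) with arrays shifted to one median, 555 (331 and 224) with a level above 5, 502 (292 and 210) with all 12 arrays in the fit, 3006 (943 and 2063) with array weights and 980 (426 and 554) at an adjusted p under 0.10. There were 17 (9 and 8) with no gene set aside, where genes at the floor enter the estimate of the spread, and 8 (8 and 0) at an adjusted p under 0.01. Trend and robust settings gave 375 and the mean of all probe sets 337. The share of rises was 63.9%, and 46.5% after quantile normalization, 52.9% with no gene set aside, 94.4% with the replicate block and 31.4% with array weights. With the replicate block 18 genes passed (17 up, 1 down). Whether the replicate numbers pair the samples is not settled, so this is a count only. Leaving out 1 array gave 0 to 337 calls, 0 to 205 up and 0 to 132 down. For probe sets the count was 439, 22 with none set aside, and 0 to 553 with 1 array left out. The interaction stayed at 0 calls in each of the 12 fits without an array and with the replicate block. Of the list medians, 13 moved by more than the spread between arrays and 284 did not. Values near the floor of 2.21 limit what can be said of low genes.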
